A study of Sus scrofa with 3 samples.

Results

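The signals of 8 genes known as targets of interferon were followed: ISG15, MX1, IFIT1, IFIT3, USP18, DDX58, DDX60 and IFI44L. Their probe sets were read on 3 arrays of miniature pig tooth germs. The genes were chosen by their signals in these data, as a group with highest signals on E50, so that the E50 peak is a description here and no test was made of it. A probe set was counted as a member when the platform annotation, or the gene tables of the study, gave it 1 of the 8 symbols. This found 13 of the 23999 probe sets analysed, and 8 of the 7149 gene symbols named on the array. In all, 9 probe sets of 6 genes had an E50 peak and 4 probe sets of 2 genes, DDX60 and IFI44L, did not.

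The tissue was the germ of the last deciduous molar in the mandible of Wuzhishan miniature pigs, taken with its dental lamina. The study described the E40 germ as cap stage before a successional lamina is present and the E50 germ as bell stage with that lamina beginning. It described the E60 germ as secretory stage with little change of the lamina, whereas its methods call E50 early bell and E60 late bell. The labels name no treatment and no allele, and all 3 stages share breed and tissue. At each stage the germs of 1 litter were pooled into 1 RNA sample on 1 Affymetrix Porcine Genome Array, so that there are no replicates and stage, litter and array cannot be told apart.

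Interferons are cytokines released by cells that sense foreign or misplaced nucleic acid. Type I interferon binds the receptor pair IFNAR1 and IFNAR2, whose kinases JAK1 and TYK2 activate transcription factors such as STAT2. Together with IRF9 it forms part of a complex that switches on a large set of target genes at once, among them the members. In healthy tissue most of these genes are transcribed at a low level, and they are best known from the response to viruses.

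Values are MAS 5.0 signals, taken back from the deposited log2 scale. All 3 arrays had been scaled to the same trimmed mean of 500.1, whereas their medians were 163.5 for E40, 125.0 for E50 and 132.0 for E60. Signals in the lowest 25% of an array were treated as too dim to read and set to the upper edge of that range, called the floor: 29.3 for E40, 17.2 for E50 and 21.8 for E60. Where 1 of the signals of a ratio was set to the floor, the ratio can only be larger than given, and "at least" stands before it. The only measure of precision was the scatter between probe sets of 1 gene. The pooled SD of their log2 folds was 0.55 on E50 versus E40 over 1596 genes, 0.41 on E60 versus E50 over 1625 genes and 0.50 on E60 versus E40 over 1596 genes, and it covers differences between probes but not between litters.

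ISG15 encodes a ubiquitin-like protein that is attached to other proteins, and USP18 the protease that takes it off again and that also damps signalling at IFNAR2. ISG15 read 113.5 on E40, 719.5 on E50 and 122.1 on E60. It stood high on E50 alone, 6.34-fold higher than on E40, and E60 was 5.89-fold lower than E50. USP18 read 220.7 on E40, 624.5 on E50 and 256.4 on E60. This gene had the same shape with a smaller rise, 2.83-fold on E50 versus E40, and was 2.44-fold lower on E60 than on E50. For both genes the E60 signal lay close to the E40 signal, 1.08-fold higher for ISG15 and 1.16-fold higher for USP18.

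MX1 is a dynamin-like GTPase that blocks influenza and other viruses. It read 190.2 on E40, 1035.3 on E50 and 186.8 on E60. E50 was 5.44-fold higher than E40, and E60 was 5.54-fold lower than E50. Of the members with an E50 peak that could be measured on both, its E60 and E40 signals were the nearest to each other, with a log2 fold of -0.03.

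The IFIT proteins bind RNA and stop its translation; in human cells IFIT1 recognises caps that lack the methyl mark of host mRNA, and IFIT3 binds and stabilises IFIT1. IFIT1 had 3 probe sets, all with an E50 peak. The brightest, Ssc.30752.1.S1_at, read 58.6 on E40, 341.1 on E50 and 67.1 on E60. E50 was 5.82-fold higher than E40, and E60 was 5.08-fold lower than E50. The other two were under the floor on E40 and allow only bounds there. Ssc.30752.3.S1_at read 11.3 on E40, 91.8 on E50 and 28.7 on E60. Here E50 was at least 3.14-fold higher than E40 and E60 was 3.20-fold lower than E50. Ssc.30752.2.A1_at read 12.2 on E40, 84.1 on E50 and 19.4 on E60, which put E50 at least 2.87-fold above E40 and E60 at least 3.85-fold lower than E50. All 3 probe sets thus gave the same order of stages. IFIT3 read 352.9 on E40, 753.2 on E50 and 278.0 on E60. Of the peaking members it was the closest to the limit of 2-fold. Its E50 signal was 2.13-fold higher than on E40, a log2 fold of 1.09 that passed the limit of 1 by less than the SD between probe sets, and E60 was 2.71-fold lower than E50. Bounds aside, the limit was also passed by less than the SD by USP18, with log2 folds of 1.5 on E50 over E40 and -1.28 on E60 over E50. The same held for both DDX58 probe sets on E60 over E50, with -1.19 and -1.26.

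DDX58 encodes RIG-I, the cytosolic helicase that senses viral RNA by its triphosphate end and starts interferon production. Both of its probe sets had an E50 peak. Ssc.15885.1.S1_at read 78.0 on E40, 571.4 on E50 and 250.5 on E60. Bounds aside, this was the highest E50-versus-E40 ratio of the members, 7.32-fold, while E60 was only 2.28-fold lower than E50. The second probe set, Ssc.21.1.S1_s_at, whose suffix marks probes shared between transcripts, read 33.3 on E40, 171.4 on E50 and 71.7 on E60. E50 was 5.14-fold higher than E40, and E60 was 2.39-fold lower than E50. DDX58 was the only member past 2-fold on E60 versus E40, higher by 3.21-fold on the first probe set and by 2.15-fold on the second. A floor at the 50th percentile ended both of these E60-versus-E40 calls.

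DDX60, a helicase reported in human cells to act with RIG-I, could not be counted. Its 1 probe set read 1.5 on E40, 25.1 on E50 and 2.4 on E60. Only the E50 signal was above the floor of its array, and it was below the E40 floor, so that no E50-versus-E40 fold can be given. E60 was at least 1.15-fold lower than E50. With no floor the log2 fold was 4.11 on E50 over E40 and -3.41 on E60 over E50. The signal was thus highest on E50, as for the peaking members, but both folds rest on signals too dim to read.

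IFI44L, an interferon-induced gene of less well known function, did not follow the peak on any of its 3 probe sets. Ssc.10588.1.A1_at read 445.7 on E40, 343.1 on E50 and 301.4 on E60 in a steady small decline, with log2 folds of -0.38 on E50 over E40 and -0.19 on E60 over E50. Ssc.10593.1.S1_at read 75.9 on E40, 56.2 on E50 and 48.6 on E60, with log2 folds of -0.43 and -0.21 for the same pairs. None of these passed 2-fold, and the E50-over-E40 direction depended on the scaling, since equal medians gave 0.01 for the first probe set and quantile normalization gave 0.16 for the second. Ssc.10593.2.A1_at was under the floor on every array, with 9.7 on E40, 11.2 on E50 and 12.6 on E60. The 2 probe sets that could be read had their highest signal on E40, not on E50.

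**Figure D1:**
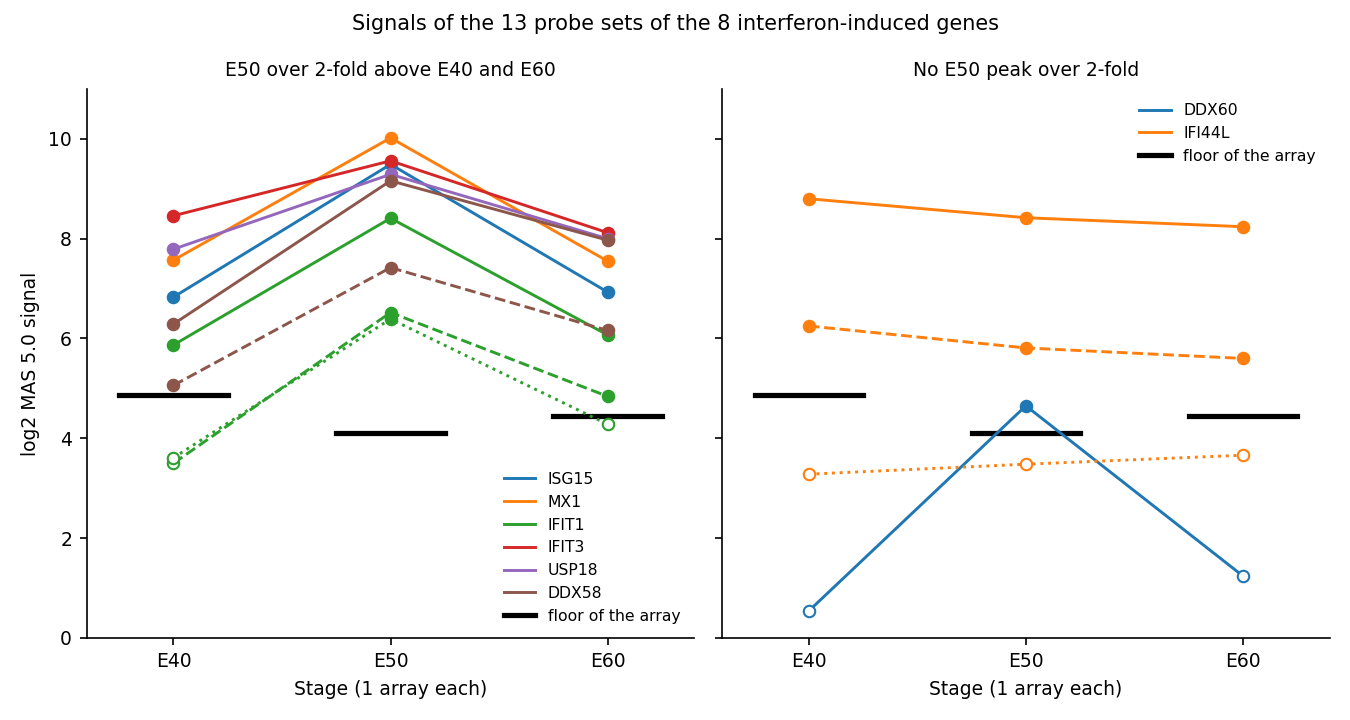
Log2 MAS 5.0 signal (vertical axis) of each member probe set on E40, E50 and E60, 1 array per stage. Lines of 1 colour are probe sets of 1 gene, open points lie under the floor of their array and black bars mark the floors. On the left, the 9 probe sets with an E50 peak all rise above both other stages, and of those above the floor on both E60 and E40 only the DDX58 ones differ between these stages by more than 2-fold; on the right, DDX60 is above a floor on E50 only and the 3 IFI44L probe sets show no peak.

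Set against the whole array, the members' counts were as follows. On E50 versus E40, 12 of the 13 member probe sets were above the floor on at least 1 of the arrays, DDX60 among them without a fold, and 9 of the other 11, from 6 genes, were over 2-fold higher, 2 of them as bounds. Of all 19132 probe sets above the floor on at least 1 of the arrays, 2.49% were over 2-fold higher and 15% over 2-fold lower on E50, and no member was lower. The median log2 fold was 1.65 over these 11 member probe sets and -0.12 over all probe sets with a fold. With DDX60 and its like kept at their raised signals, as in the alternatives, the medians were 1.59 and -0.14. On E60 versus E50, the same 9 probe sets were over 2-fold lower, against 1.84% of all 18979 measured, and none was higher, against 6.24%. The median log2 fold was -1.36 over the members and 0.03 over all. Since the members were picked for this pattern, the shares over all probe sets only show how rare it was on the array.

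On E60 versus E40, 9 member probe sets had a fold, and 1 of IFIT1 was above the floor on E60 only, with no fold. The 2 of DDX58 were over 2-fold higher, against 4.40% of all 19110 measured, and none was lower, against 12.3%. The median log2 fold was 0.10 over the 9 members and -0.11 over all with a fold. Apart from DDX58, the peaking members that could be measured ended within 2-fold of their E40 signal, with log2 folds of 0.10 for ISG15, -0.03 for MX1, 0.20 for IFIT1 (Ssc.30752.1.S1_at), -0.34 for IFIT3 and 0.22 for USP18.

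**Figure D2:**
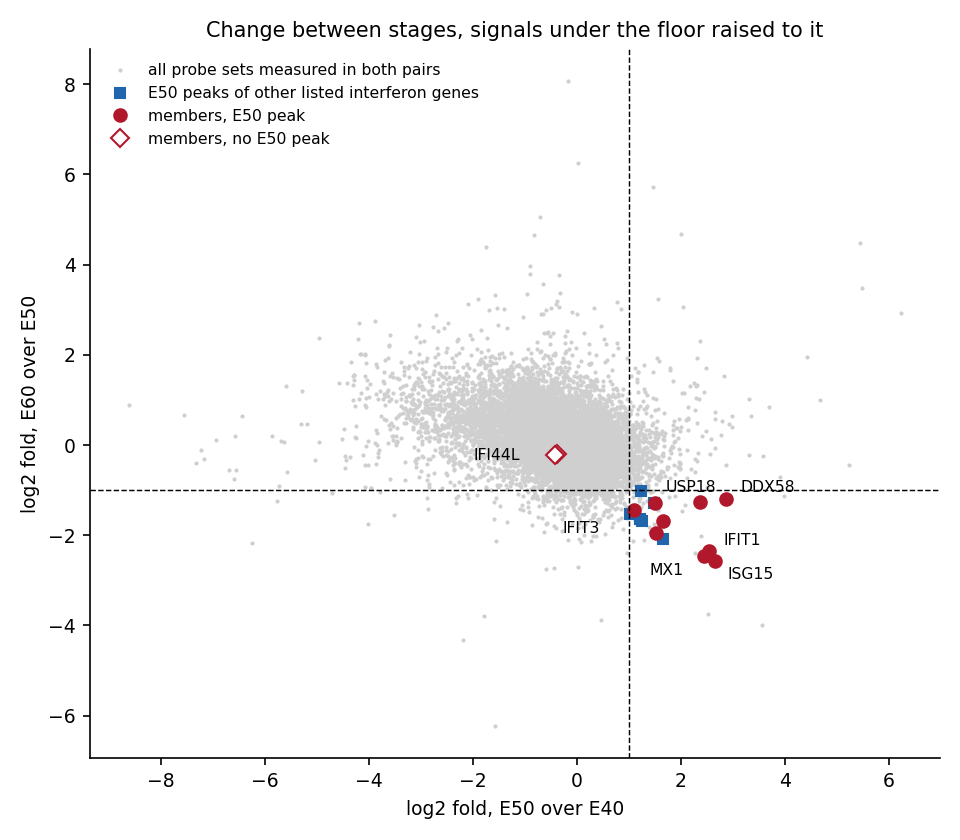
Log2 fold of E50 over E40 (horizontal axis) against log2 fold of E60 over E50 (vertical axis) for every probe set measured in both pairs (grey), the member probe sets (red) and the E50 peaks of other listed interferon genes (blue squares). Signals under the floor were raised to it, dashed lines mark 2-fold, and the 9 peaking members lie at the lower right, where 60 probe sets of the array pass both limits. DDX60 and the IFI44L probe set under the floor are not drawn.

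The height of a peak was taken as the smaller of the log2 folds of E50 over E40 and E50 over E60. A peak over 2-fold above both stages was found for 60 of 17999 probe sets with an E50 signal above the floor, or 0.333%, of which 9 were member probe sets. ISG15 had the second highest peak on the array at 2.56, MX1 the fourth at 2.44 and IFIT1 the fifth at 2.35. The weaker IFIT1 probe sets followed at ranks 10 and 12, with 1.65 and 1.52 as bounds. USP18 was at rank 21 with 1.28. DDX58 stood at ranks 24 and 31 with 1.26 and 1.19, lower than its E50-versus-E40 ratio because its E60 signal remained high. IFIT3 was last of the peaking members, at rank 39 with 1.09. The nearest member outside the limit with a height that could be read was IFI44L at -0.38. The height of DDX60 is not known, since its E50 signal was below the E40 floor.

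Of the 60 peaks, 39 had 1 gene symbol, 20 had none and 1 had several. Beside the 9 of the members, 6 belonged to other interferon-induced genes of the lists and 24 to other genes. The highest peak on the array, at least 3.57, was of a probe set with several symbols that read 21.5 on E40, 346.9 on E50 and 14.4 on E60. Probe sets with no symbol held ranks 6 and 7, with heights of 2.28 and 2.01. Of the probe sets with 1 symbol, the nearest to the members in pattern, by peak height and outside the interferon lists, were CYP2J34, a cytochrome P450, with signals of 50.6, 292.2 and 19.8 on E40, E50 and E60, and CRSP3 with 16.9, 96.0 and 9.8. After them came TRPT1, a tRNA phosphotransferase, and the ribosome biogenesis factors WDR3 and PDCD11. WDR3 read 485.7 on E40, 1434.2 on E50 and 529.9 on E60. Further down were AKR1CL1 and LOC100157017. The number of peaks on the array changed with the scaling, to 116 with equal medians and 168 with quantile normalization, whereas the same 9 member probe sets peaked under both.

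**Figure D3:**
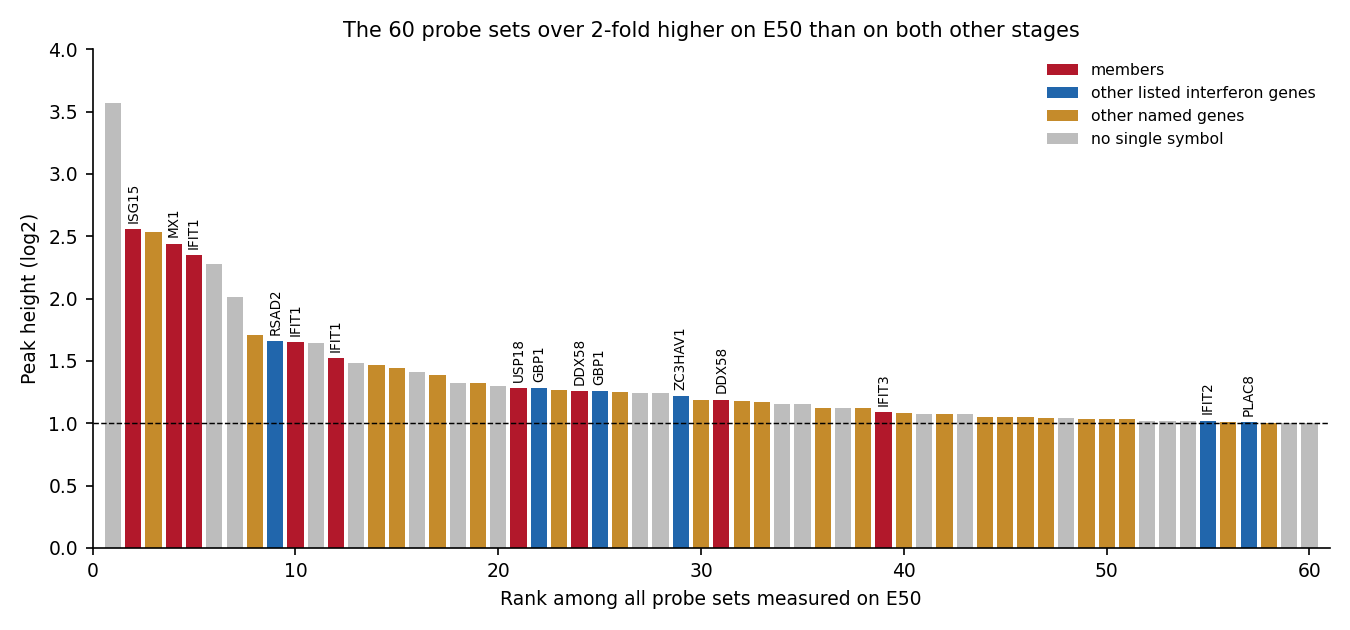
Peak height (log2, vertical axis) of the 60 probe sets that were over 2-fold higher on E50 than on both E40 and E60, in order of rank (horizontal axis). Red bars are members and blue bars other listed interferon genes, with their symbols; the dashed line marks 2-fold. ISG15, MX1 and the brightest IFIT1 probe set stand among the first 5, and IFIT3 near the limit at rank 39.

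The rest of the interferon pathway was followed through 8 lists with 139 genes, of which 80 had a named probe set and 10 of these were under the floor on all arrays. On E50 versus E40, 70 genes could be measured, with 7 higher and 2 lower by over 2-fold and a median log2 fold of 0.11. On E60 versus E50 the counts were 3 higher and 7 lower, with a median of -0.16. The share higher on E50 than on E40, 10.0% of these genes, stood beside 2.49% of all probe sets. Of the 70 genes above the floor on E50, 5 had an E50 peak, or 7.14%, beside 0.333% of all probe sets. These counts take the brightest probe set of each named gene, whereas the shares of the array count all probe sets, named or not. The lists were chosen with earlier results of these data known, so that the shares are a description and no test. The number higher on E50 depended on the scaling, and was 15 with equal medians and 16 with quantile normalization. The share of all probe sets higher on E50 was not computed under these scalings, so these counts cannot be set beside 2.49%.

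Of the interferon ligands, 3 of 11 were named. IFNB1 was listed at 1.0, 1.0 and 1.1 and IFNG at 1.5, 1.7 and 1.0 on E40, E50 and E60, all under the floor. IFNA1 was above it but flat, with 54.1, 52.0 and 51.6. Thus no ligand that could be read had an E50 peak.

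Of 12 receptors and kinases listed, 10 were named and 8 measured. On the brightest probe set of each gene none passed 2-fold on E50 versus E40 or on E60 versus E50, and 1, IL10RB, did on E60 versus E40. This receptor chain read 95.9 on E40, 128.3 on E50 and 224.4 on E60, 2.34-fold higher on E60 than on E40. Of the type I receptor pair, IFNAR1 read 766.7 on E40, 635.7 on E50 and 543.5 on E60, while IFNAR2 read 535.6, 365.1 and 337.9. A dimmer IFNAR2 probe set read 87.6, 74.0 and 26.4 and was 2.80-fold lower on E60 than on E50. The kinases of the receptor were flat, JAK1 with 3529.5, 3942.7 and 3394.2 and TYK2 with 2015.8, 1977.6 and 2056.8. SOCS1, the inhibitor of these kinases that interferon itself induces, read 125.9 on E40, 204.8 on E50 and 134.4 on E60, highest on E50 but within 2-fold. A second SOCS1 probe set read 103.3, 222.3 and 130.5, which put E50 2.15-fold above E40, and E60 was 1.70-fold below E50, within the limit. With equal medians or quantile normalization the first probe set also passed the limit on E50 versus E40.

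Of the STAT and IRF transcription factors, 8 of 10 were measured. None passed 2-fold on E50 versus E40. IRF9, the DNA-binding part of the complex that drives the members, read 207.7 on E40, 313.6 on E50 and 139.9 on E60. E50 was 1.51-fold above E40, within the limit, and E60 was 2.24-fold lower than E50. STAT2, the partner of IRF9, was flat at 441.8, 376.7 and 402.1, and so was STAT3 at 1019.4, 1245.4 and 1285.2. IRF7, which amplifies interferon production, read 146.5, 163.2 and 90.5.

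Among the sensors and adaptors beside DDX58, 6 of 16 were named and 4 measured. On the brightest probe set of each gene none passed 2-fold on E50 versus E40. MAVS, the mitochondrial adaptor of RIG-I, read 39.2 on E40, 46.0 on E50 and 17.9 on E60. E60 was at least 2.11-fold below E50, a call that housekeeping scaling ended. MYD88, the adaptor of Toll-like receptors, read 43.2, 52.1 and 137.3 on its brightest probe set, with E60 2.64-fold above E50. Its 3 dimmer probe sets did not share this, and 1 of them, with 76.3, 34.8 and 47.4, put E50 2.19-fold below E40. TBK1, the kinase that activates IRF3, was flat at 866.6, 760.6 and 907.1.

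The other interferon-induced effectors held all 5 of the further genes with an E50 peak. Of 49 listed, 24 were named and 23 measured, and on E50 versus E40 they had 5 higher, 1 lower and a median log2 fold of 0.13. With equal medians 10 were higher and with quantile normalization 9, where no share of all probe sets was computed. On E60 versus E50 the same 5 were lower, with a median of -0.44. RSAD2, or viperin, which makes a chain-terminating nucleotide, read 13.8 on E40, 92.8 on E50 and 1.8 on E60. E50 was at least 3.17-fold above E40, and E60 at least 4.25-fold below E50. ZC3HAV1, which marks viral RNA for decay, read 18.2, 68.0 and 12.9, at least 2.32-fold higher and then at least 3.12-fold lower. Both of these genes were above the floor on E50 only.

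GBP1, a guanylate-binding protein, read 35.4 on E40, 99.1 on E50 and 40.7 on E60 on its brightest probe set. E50 was 2.80-fold above E40, and E60 was 2.43-fold below E50. A second GBP1 probe set also had an E50 peak, and the other was under the floor on all arrays. IFIT2, the sister gene of IFIT1 and IFIT3, read 57.8 on E40, 116.8 on E50 and 40.5 on E60, 2.02-fold higher and then 2.89-fold lower. Only this one of its 3 probe sets passed both limits. PLAC8 read 43.1, 100.8 and 50.1, 2.34-fold higher and then 2.01-fold lower. IFIT2 and PLAC8 lay so close to the limit that housekeeping scaling ended their peaks. The remaining effectors had no peak over 2-fold. PARP9, an ADP-ribosyltransferase, and its partner DTX3L, a ubiquitin ligase, were highest on E50 within the limit. PARP9 read 208.0 on E40, 336.1 on E50 and 243.3 on E60, with E50 1.62-fold above E40. DTX3L read 46.0, 72.7 and 47.6, with E50 1.58-fold above E40. MX2, the paralogue of MX1, read 34.0 on E40 and 33.9 on E50, and OAS1, which makes the activator of RNase L, read 42.1, 38.5 and 54.1. EIF2AK2, the RNA-dependent kinase PKR, read 447.2, 426.4 and 339.6. XAF1, an antagonist of an apoptosis inhibitor, went the other way on E50, with 82.9 on E40, 36.9 on E50 and 15.7 on E60, 2.24-fold lower on E50 than on E40, but within 2-fold with equal medians or quantile normalization. SHISA5 with 1041.9, 1156.1 and 1110.8 and SAMHD1 with 1072.1, 546.7 and 618.6, stayed within 2-fold.

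Of the enzymes that attach ISG15 to its targets, 1 of 5 was named, the ligase ARIH1, which also works with other substrates. It was flat, with 1975.8 on E40, 1956.1 on E50 and 1906.3 on E60. The enzymes specific for ISG15 are not named on the array in the annotation used here.

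Class I antigen presentation, which both types of interferon raise, had 15 of 19 genes measured. On E50 versus E40, 2 were higher and none lower, with a median log2 fold of 0.34. With equal medians 4 were higher and with quantile normalization 5, where no share of all probe sets was computed. On E60 versus E50 none passed 2-fold, with a median of -0.25. The immunoproteasome subunit PSMB9 read 31.9 on E40, 92.2 on E50 and 55.3 on E60, 2.89-fold higher on E50 than on E40. The class I chain SLA-2 read 1290.8, 2730.4 and 2691.0, 2.12-fold above E40 on E50 and only 1.01-fold apart between E60 and E50, on a probe set whose suffix marks matches to other genes. B2M, the invariant light chain, was flat on its brightest probe set at 21652.3, 20909.6 and 20211.2, but its 9 probe sets disagreed. Of these, 1 put E50 over 2-fold above E40, with 2140.1, 4939.9 and 5280.2, and the other 8 stayed within 2-fold. No gene of this list had an E50 peak over 2-fold.

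Among class II genes and other targets of interferon-gamma no E50 peak was found. Of 17 listed, 13 were named and 10 measured. On E60 versus E50, 2 of the 10 were over 2-fold higher, beside 6.24% of all probe sets, and none was lower. The list had a median log2 fold of -0.40 on E50 over E40 and 0.75 on E60 over E50. The first of these was -0.02 with equal medians and 0.09 with quantile normalization, and the second stayed between 0.58 and 0.87 under the 3 other scalings. SLA-DRB1 read 167.8 on E40, 83.9 on E50 and 253.0 on E60, with E50 just past 2-fold below E40 and E60 3.02-fold above E50. SLA-DQA1 read 119.6, 93.7 and 241.5, with E60 2.58-fold above E50. Other genes of the list fell within 2-fold from E50 to E60 on the brightest probe set of each gene. Their log2 folds were -0.59 for WARS1, -0.26 for CXCL9 and -0.25 for SLA-DMA. The dimmer probe sets of WARS1 had -0.3 and 0.16. A dimmer SLA-DMA probe set went the other way, with 80.7 on E40, 35.3 on E50 and 85.8 on E60. It put E50 2.29-fold below E40, and E60 stood 2.43-fold above E50. The chemokine CXCL9 read 14.4, 37.4 and 31.3, with an E40 signal under the floor. Inflammatory targets of NF-kB had no E50 peak either. Of 11 measured on E50 versus E40, none was higher and 2 were lower, a share near the 15% of all probe sets. These were IL1A with 143.5, 55.6 and 30.1 on E40, E50 and E60, and CXCL2 by at least 2.44-fold, and both were within 2-fold with equal medians or quantile normalization.

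**Figure D4:**
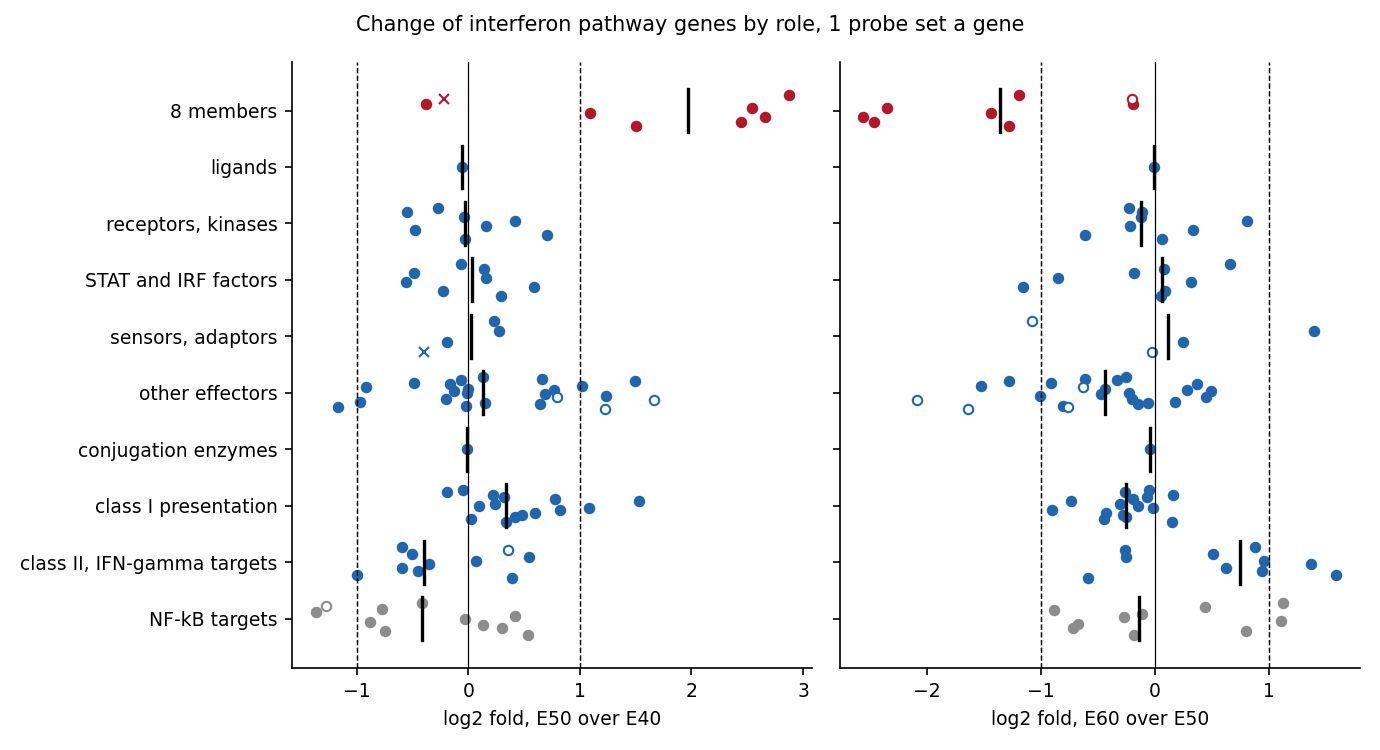
Log2 fold of each gene on E50 over E40 (left) and E60 over E50 (right), 1 probe set a gene, by role in the interferon pathway. Open points are bounds with 1 signal raised to the floor, crosses are genes whose raised signal passed the other one and have no fold, black bars are list medians with the crosses counted at their raised signals and dashed lines mark 2-fold. The members have medians of 1.97 and -1.36. The medians of receptors and kinases and of STAT and IRF factors lie around 0, with IRF9 at -1.16 on E60 over E50. Class II genes have a median of 0.75 on E60 over E50.

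The position of the members in the RefSeq pig assembly was also compared with their values. IFIT2, IFIT3 and IFIT1 are immediate neighbours, and each had a probe set with an E50 peak. MX1 lies beside MX2, which was flat. DDX58 lies beside ACO1, an iron-regulated aconitase, which read 6350.0 on E40, 6714.1 on E50 and 8373.0 on E60. IFI44L lies beside PTGFR, a prostaglandin receptor, which read 343.2, 186.4 and 446.1 and was lowest on E50. The other immediate neighbours had no named probe set, so that a shared peak of adjacent genes was seen at the IFIT genes only.

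No list of markers of other cells in the germ held a gene with an E50 peak over 2-fold, 1 probe set a gene. In pooled tissue, fewer cells of a type and less RNA per cell cannot be told apart. The summed signal of the members, 1 probe set a gene, came to 1461.0 on E40, 4413.0 on E50 and 1464.7 on E60. That of 13 named macrophage markers was 2198.4, 1394.7 and 2053.4, lowest on E50, with none of 10 measured higher and 2 lower on E50 versus E40, near the share of all probe sets. These were TYROBP with 100.7, 8.5 and 103.5 on E40, E50 and E60, and LYZ with 583.1, 29.6 and 85.7, which made up most of the fall of the sum. AIF1 with 309.7, 447.3 and 609.0 and C1QC with 204.4, 214.5 and 300.4 did not fall, both within 2-fold. CD14 had no fold on this pair. The others measured fell within 2-fold. These were CD163 with 138.5, 75.4 and 108.5, C1QA with 76.3, 41.8 and 78.7 and MRC1 with 219.9, 131.8 and 141.4. LAPTM5 with 401.3, 285.2 and 442.3 and FCER1G with 121.2, 101.9 and 110.1 were the rest. The list median log2 fold on E50 over E40 was -0.62, -0.23 with equal medians and -0.28 with quantile normalization. The defining markers PTPRC, the general leukocyte antigen, and MARCO were under the floor on all arrays.

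T and NK cell markers, 11 named, summed to 281.9 on E40, 286.8 on E50 and 274.0 on E60. Of their defining genes, CD3G and CD4 were under the floor on all arrays, CD3E was under it on E40 and E60, and CD8A was at least 2.99-fold higher on E50 than on E40, with 22.1, 87.6 and 51.3. CD3D with 20.1, 34.5 and 15.1 and CD8B with 23.3, 27.5 and 19.5 were above the floor on E50 only, and neither passed 2-fold. Other markers went the other way. CD2 read 36.4, 2.3 and 1.6, at least 2.11-fold lower on E50 than on E40. CD247 with 127.7, 77.4 and 60.4 and LCK with 30.5, 18.4 and 23.6 were lower on E50 within 2-fold. Of 7 measured on E50 versus E40, 1 was higher and 1 lower, beside 2.49% and 15% of all probe sets. Their median log2 fold was -0.72. It was -0.33 with equal medians and 0.04 with quantile normalization, and none was lower under either. Neutrophil markers, 5 named, summed to 235.8, 149.7 and 192.5, and 9 endothelial markers to 3639.3, 2172.0 and 3142.4, both lowest on E50. The macrophage, neutrophil and endothelial sums were lowest on E50 under all 4 scalings. The T and NK cell sum was highest on E50 as given above, with equal medians (240.0, 319.3 and 289.0) and with quantile normalization (223.8, 347.7 and 282.3). With housekeeping scaling it was lowest on E50, with 279.9, 276.2 and 286.5. Only 2 B cell markers were named, with sums of 177.2, 219.2 and 291.0. The part of T cells in the members' signal was not tested.

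The sums of skeletal muscle and of keratinised epithelium markers moved more strongly between E40 and E50 than that of the members did. Skeletal muscle markers, 13 named, summed to 42508.2 on E40, 957.8 on E50 and 3685.9 on E60, with all 13 lower on E50, and keratinised epithelium markers, 7 named, to 11141.7, 1990.6 and 2436.6. The 6 markers of dental epithelium and ameloblasts summed to 4508.6, 9708.5 and 63974.4, and 7 of dental mesenchyme and odontoblasts to 13703.2, 11775.2 and 17585.0. The labelled tissue was borne out on E50 and E60 by AMBN, with 59.8, 2675.2 and 29942.0, and AMELX, with 22.0, 2218.3 and 16881.4. On E40 most of the first sum was CDH1, flat at 4285.7, 4565.9 and 4765.2, and AMELX and ENAM were under the floor. KLK4 went the other way, with 75.1, 10.4 and 7.0. None of these 4 lists was highest on E50 under any of the scalings. The part of the lower muscle and keratinised epithelium signals of E60 and E50 in the members' signals was not tested. Housekeeping genes, 12 named, had median log2 folds of 0.02 on E50 over E40 and -0.07 on E60 over E50. The ratio of 3' to 5' signal of GAPDH, a measure of RNA integrity, came to 1.84 on E40, 1.36 on E50 and 1.63 on E60 for 1 pair of control probe sets, 1.41, 1.57 and 1.84 for the second and 1.53, 4.55 and 3.60 for the third, so that the pairs disagree on which stage had the most complete RNA.

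**Figure D5:**
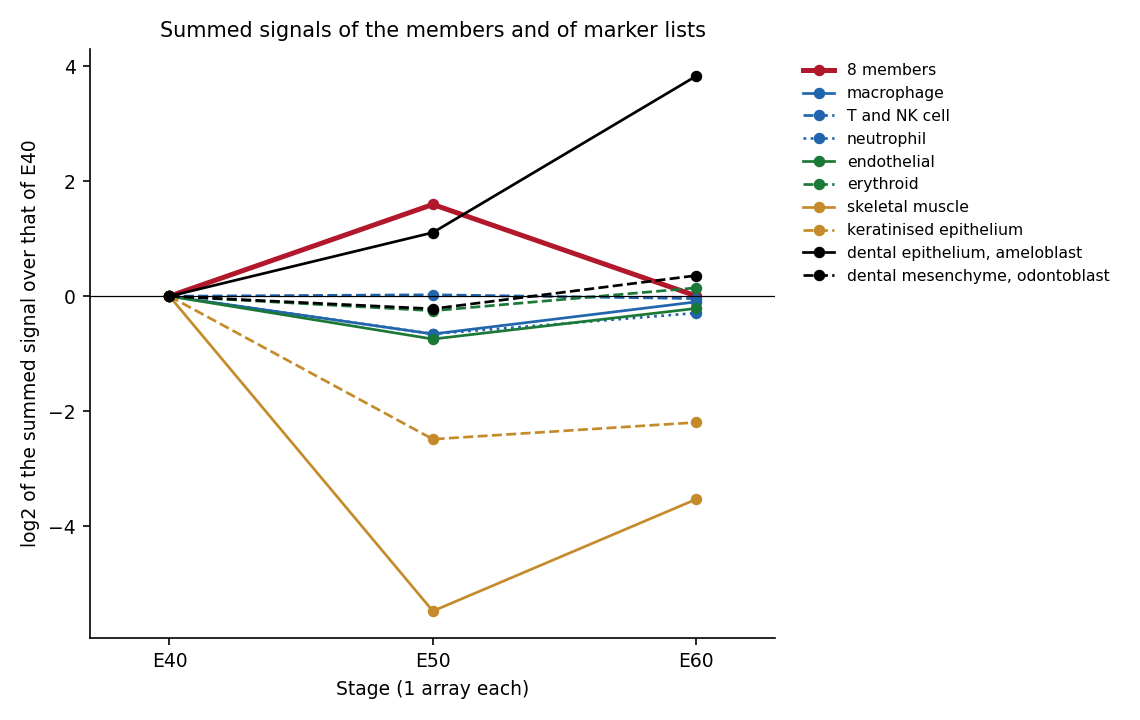
Log2 ratio of the summed signal of each list to its sum on E40 (vertical axis), by stage (horizontal axis, 1 array each), 1 probe set a gene. The members (red) stand highest on E50 and return on E60, with sums of 1461.0, 4413.0 and 1464.7. Macrophage, neutrophil and endothelial markers are lowest on E50, muscle and keratinised epithelium markers are highest on E40 and ameloblast markers on E60.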

How the data were processed

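RNA of pooled tooth germs was measured on 1 Affymetrix Porcine Genome Array at each of E40, E50 and E60. The authors computed MAS 5.0 signals, scaled each array and deposited log2 values of them; detection calls were not used here. The table holds 24123 probe sets, and its 124 array controls were not analysed. Symbols came from the platform table (10069 probe sets with 1 symbol, 198 with several) and, for 488 more, from the study's gene tables; 13244 had none. All 8 members matched the RefSeq gene table by gene ID.

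Signals under the 25th percentile of their array were raised to it, and folds between 2 arrays were called over 2-fold. List medians count a raised signal that passed the other one at its raised value. A listed gene was represented by its probe set of highest mean log2 signal. With 1 array per stage no test was run, and the number of arrays limits the precision. The 21 gene lists hold 303 genes, 194 of them named. The members and lists were chosen with earlier results of these data known. Named are all member probe sets, listed pathway genes past 2-fold and the brightest otherwise, the brightest markers and those under the floor, and the 15 leading named peaks. Other genes, such as IFNAR1, IFNAR2, SOCS1, IRF7, STAT2, MX2, OAS1, EIF2AK2, PARP9, DTX3L, IL10RB, CXCL9, WARS1, SLA-DMA, CD8A, CD3D, CD8B and neighbouring genes, were picked after their values were seen. The same holds for CD2, CD247, LCK, CD14, CD163, C1QA, MRC1 and FCER1G.

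Alternatives were a floor at the 50th percentile, none or a common one, equal medians, quantile normalization, housekeeping scaling, a 3-fold limit, no shared-match suffixes, platform symbols only and the mean over a gene's probe sets. Calls were tested on simulated data with large changes seeded in bright probe sets and little noise. This checked the computation and not how reliable the calls are on these arrays. Python 3.11.15, numpy 2.4.6, pandas 2.3.3 and matplotlib 3.10.9 were used.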

Additional observations from a re-analysis of the deposited data

How the results depend on the processing

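No paired analysis was possible because each stage has 1 array, and for the same reason no replicate could be left out. The count of members was 9 for those higher on E50 than on E40, for those lower on E60 than on E50 and for the peaks, with equal medians, quantile normalization, housekeeping scaling, a common floor and platform symbols only. With no floor DDX60 was added, giving 10 in each, and a floor at the 50th percentile gave 6 in each. No called value changed sign. Small folds that passed no limit did: IFI44L on E50 over E40 (-0.42 to 0.01 and -0.48 to 0.16 for its 2 readable probe sets), MX1 on E60 over E40 (-0.03 to 0.28) and the median on E60 over E40 of the members (-0.03 to 0.43) and of the other pathway genes (-0.07 to 0.34). Values that moved are as follows. With a 3-fold limit, 5 member probe sets were lower on E60 than on E50, 4 peaked and 1 was higher on E60 than on E40. The last count, 2, also became 3 with no floor, 0 with a floor at the 50th percentile and 1 with no shared-match suffixes. The median log2 fold of the members on E50 over E40, 1.59, was 2.44 with no floor and 2.20 with quantile normalization. The 60 peaks of the array became 494 with no floor, 19 with a floor at the 50th percentile, 116 with equal medians, 168 with quantile normalization and 11 with a 3-fold limit, and members among the 20 leading peaks, 5, became 1 with no floor. Pathway genes outside the members higher on E50 than on E40, 7, became 1 with a floor at the 50th percentile, 15 with equal medians, 16 with quantile normalization and 1 with a 3-fold limit. Those lower on E60 than on E50, 7, became 1 with a floor at the 50th percentile and 2 with a 3-fold limit. The median log2 fold of all probe sets on E50 over E40 was -0.14, 0.25 with equal medians and 0.09 with quantile normalization, so that part of these changes is the shift itself; the cause of the others was not tested. The planned search for interferon response motifs in promoters was not run, as no promoter sequence was used here. Signals under the floor limit what DDX60 and 2 IFIT1 probe sets can show.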

Other observations

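The 24 named probe sets with an E50 peak outside the interferon lists included the following genes, chosen here after their values were seen. CRABP2, which carries retinoic acid to its receptors, read 1304.0 on E40, 2992.9 on E50 and 1492.7 on E60, just past 2-fold. ALDH2, a mitochondrial aldehyde dehydrogenase, read 1696.9, 4330.2 and 1826.9. TRH, the thyrotropin-releasing hormone, read 59.5, 943.2 and 435.1 and, like DDX58, stayed high on E60. The ligand WNT10B, known from tooth germs, read 34.7, 80.9 and 35.6. The ribosome biogenesis factors PDCD11 and BOP1 were dim on both sides of the peak, with 18.5, 76.8 and 18.7 for PDCD11 and 8.3, 59.8 and 9.1 for BOP1.

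The array also carries control probe sets named IRP, for which no gene was established here. The 3' set read 1.0 on E40, 17.4 on E50 and 2.4 on E60, the middle set 7.5, 1.0 and 3.6 and the 5' set 7.5, 11.4 and 45.4. Only the 3' set was highest on E50. Its E50 signal was close to the floor, and its E40 and E60 signals were under the floors of their arrays.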
